A study of Mus musculus with 12 samples.

Results

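The 49 genes described here are nuclear genes whose products keep, copy and transcribe mitochondrial DNA (mtDNA), cut, modify and stabilize its RNAs, or load mitochondrial tRNAs with amino acids. They were taken from the expression table by their symbols, with a mean of at least 10 normalized counts over the libraries as the only condition on their values. All 49 listed genes were found and met it, out of 13531 genes that did so and 14775 genes in the table: 6 for DNA upkeep, 7 for transcription, 16 for RNA processing and stability, 6 for RNA modification and 14 aminoacyl-tRNA synthetases. Expression was measured by RNA sequencing in TMCON cells, an immortalized mouse brown adipocyte line differentiated in culture, of which 6 libraries came from cells given the organophosphate insecticide chlorpyrifos (CPF) at 1 pM for 4 h on day 9 of differentiation and 6 from cells given the vehicle, dimethyl sulfoxide, for the same time. Both groups had been induced with IBMX, indomethacin, dexamethasone, T3 and insulin, were kept in T3 and insulin, and were treated in Krebs-Ringer buffer with bovine serum albumin. The study's immortalized lines carry SV40 sequences introduced by a retrovirus, and only this cell line was sequenced. The comparison asks which transcripts differ between CPF-treated and vehicle-treated brown adipocytes.

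Mitochondria carry their own circular genome, which encodes a few subunits of the respiratory chain together with the rRNAs and tRNAs needed to translate them. Its replication, its transcription into long RNAs and the release of each RNA from these precursors depend on proteins that are encoded in the nucleus and imported. Brown adipocytes are rich in mitochondria, and nuclear respiratory factors and the PGC-1 coactivators are known to drive genes of this kind when brown fat is activated.

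Library totals were 9313253 to 14166615 reads in CPF libraries and 7875502 to 12100594 reads in vehicle libraries, and replicates 1 to 3 (7875502 to 10666098 reads) were shallower than replicates 4 to 6 (10678777 to 14166615 reads) without overlap. CPF replicate 1 and vehicle replicate 2 stood apart on the first principal component of all tested genes (29.1% of the variance), at 33.0 and 31.5, against -13.7 to 6.12 in the other 10 libraries. All 10 brown adipocyte markers examined were in the table, with a summed level of 41749 to 73855 normalized counts in CPF libraries and 53753 to 66169 in vehicle libraries. Fabp4 made up much of this sum, and the markers did not move together. Log2 fold changes, CPF minus vehicle, were positive in 6 and negative in 4. In limma 2 of the 10 (20%, against 7.32% of tested genes) had an unadjusted p under 0.05, Cebpa (0.26) and Ucp1 (-0.75), with adjusted p of 0.627 and 0.611. The 8 preadipocyte and fibroblast markers were in the table too, at 36783 to 49651 in CPF libraries and 39934 to 75875 in vehicle libraries, and their part in the results below was not tested. Log2 fold changes were negative in 7 of these 8, and none had an unadjusted p under 0.05. The 4 endothelial markers were not among the table's genes, and of 4 leukocyte and 4 muscle markers 2 and 1 were, summing to 131.7 to 162 and 15.4 to 52.2 in CPF libraries and to 101 to 159.8 and 12.8 to 35.9 in vehicle libraries. Whether the libraries of 1 group came from separate cultures is not stated, and p-values here cover only library-to-library variation, part of which may be technical.

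Promoters were compared first, because regulators of genes of this kind are known by the short sequences they bind. RefSeq promoters (assembly GRCm38.p6, 250 bases before to 50 bases after the start of a gene) were matched by symbol for 45 of the 49 genes, with 49 promoters in all; Mterf3, Top1mt, Hars2 and Mtpap had no entry. Searched on both strands were GCGCNTGCG for nuclear respiratory factor NRF1, CCGGAAG for ETS factors such as GABP, and AAGATGGCG for YY1. NRF1 matches were in 20.4% of these promoters, against 13.3% of the 12364 promoters of tested genes and 6.31% of all 32851 promoters. ETS matches were in 36.7%, against 17.5% and 8.86%, and YY1 matches were in 22.4%, against 3.02% and 1.40%. At least 1 of the 3 motifs was present in 63.3% of the promoters, against 29.9% and 14.9%, and in 30 of the 45 genes. ETS and YY1 matches stood together in 3 promoters and shared bases in 0 of them, and NRF1 and ETS matches stood together in 3 genes. A match is a description of the letters and not of binding, and several promoters of 1 gene overlap.

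Of the 3 motifs, YY1 had the share farthest above that of tested genes, so its match is shown for the 10 genes that have it, a choice made after the values were seen. Capitals mark the match, with 11 bases on each side, read on the strand of the gene.
Aars2: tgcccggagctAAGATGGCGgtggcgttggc
Mgme1: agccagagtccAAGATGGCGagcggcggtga
Mto1: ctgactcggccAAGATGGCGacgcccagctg
Ptcd2: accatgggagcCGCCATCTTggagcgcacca
Ptcd3: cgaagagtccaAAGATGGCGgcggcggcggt
Slirp: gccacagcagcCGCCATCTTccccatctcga
Tbrg4: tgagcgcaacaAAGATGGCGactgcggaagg
Trit1: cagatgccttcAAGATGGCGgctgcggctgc
Wars2: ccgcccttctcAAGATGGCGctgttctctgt
Yars2: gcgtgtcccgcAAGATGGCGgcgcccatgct
In 8 of the 10 genes the match ran in the orientation of the gene, and in 6 it lay after the start, beginning between base 7 (Wars2) and base 20 (Ptcd3, and 1 of the starts of Aars2). Over all promoters of tested genes, 73.7% of 388 YY1 matches ran with the gene and 57.2% lay after the start. The string AAGATGGCG holds the letters ATG. Whether matches after the start include the translation start of a gene was not examined. The genes came from each role but transcription: Mgme1 keeps mtDNA, Ptcd2, Ptcd3, Slirp and Tbrg4 handle RNA, Mto1 and Trit1 modify tRNA, and Aars2, Wars2 and Yars2 are synthetases. In the order shown, the windows lie at chr17:45506840-45506870 (plus strand), chr2:144270827-144270857 (plus strand), chr9:78448216-78448246 (plus strand), chr13:99344789-99344819 (minus strand), chr6:71908724-71908754 (minus strand), chr12:87443799-87443829 (plus strand), chr11:6626133-6626163 (minus strand), chr4:123016596-123016626 (plus strand), chr3:99141085-99141115 (plus strand) and chr16:16302970-16303000 (plus strand).

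Whole promoters are shown for the genes with the smallest p of their role in the comparison of CPF with vehicle, for RNA processing, RNA modification and the synthetases, with motif matches in capitals; in transcription that gene is Mterf3, which has no entry. Ptcd1 (chr5:145167055-145167354, minus strand) has an NRF1 match from base 37 after the start, and Trit1 (chr4:123016343-123016642, plus strand) a YY1 match from base 15. Fars2 (chr13:36117393-36117692, plus strand) has none of the 3 strings in this window.
Ptcd1: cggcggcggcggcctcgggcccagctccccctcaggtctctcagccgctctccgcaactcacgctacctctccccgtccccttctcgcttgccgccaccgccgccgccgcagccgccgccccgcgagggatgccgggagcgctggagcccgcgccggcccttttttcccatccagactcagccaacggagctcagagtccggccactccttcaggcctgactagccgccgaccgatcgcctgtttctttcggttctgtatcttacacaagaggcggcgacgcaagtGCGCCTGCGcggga
Trit1: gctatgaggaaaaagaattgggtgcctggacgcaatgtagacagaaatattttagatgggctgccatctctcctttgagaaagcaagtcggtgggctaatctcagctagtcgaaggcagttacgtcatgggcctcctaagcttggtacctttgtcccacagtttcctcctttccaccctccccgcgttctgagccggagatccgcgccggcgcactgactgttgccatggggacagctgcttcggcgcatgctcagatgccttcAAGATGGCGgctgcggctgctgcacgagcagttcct
Fars2: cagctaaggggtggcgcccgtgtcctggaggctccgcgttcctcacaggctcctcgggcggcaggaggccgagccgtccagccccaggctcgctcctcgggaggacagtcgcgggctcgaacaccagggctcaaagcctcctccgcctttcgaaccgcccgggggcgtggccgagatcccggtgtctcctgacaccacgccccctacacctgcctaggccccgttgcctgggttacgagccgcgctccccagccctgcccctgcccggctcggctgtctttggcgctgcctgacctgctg

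All 49 genes were expressed. Their mean level over the 12 libraries was 7.20 to 612 normalized counts per kb of exon, with a median of 85.8, against a median of 66.9 over the 13517 tested genes with a known exon length. Fastk, a mitochondrial RNA-binding protein needed for the mRNA of mt-Nd6, was highest at 612 per kb, followed by Lars2, the leucyl-tRNA synthetase, at 439, Pus1, a pseudouridine synthase, at 300.0, and Tbrg4, which belongs to the same family as Fastk, at 273. The lowest were Mars2, the methionyl-tRNA synthetase, at 7.20 and Fastkd5, another Fastk relative, at 11.5 per kb. Exon length here is that of all annotated exons of a gene merged, 11294 bases for Mars2 and 3015 for Fastkd5, and the order depends on it. By mean normalized count Mars2 was above Fastkd5, with 81.3 against 34.5. In DNA upkeep the subunits of the mtDNA polymerase differed in level, with 104 per kb for the catalytic subunit Polg and 19.5 for the accessory subunit Polg2. Tfam, which packs mtDNA and starts its transcription, stood at 133 and the mitochondrial RNA polymerase Polrmt at 105 per kb. Reads of Fastkd5 and Tfb2m cannot be assigned with certainty: 65.2% of the exon bases of Fastkd5 overlap Ubox5 on the same strand, and 31.9% of the 50-base stretches of Tfb2m also occur in Gm1818. If reads in shared stretches were left out of the count, the levels per kb of both genes are too low. The place of Fastkd5 among the lowest is therefore uncertain. In the other 47 genes at most 5% of such stretches occur in annotated transcripts of other genes. Sequence outside annotated transcripts was not searched, for Lars2 and the rest alike.

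**Figure D1:**
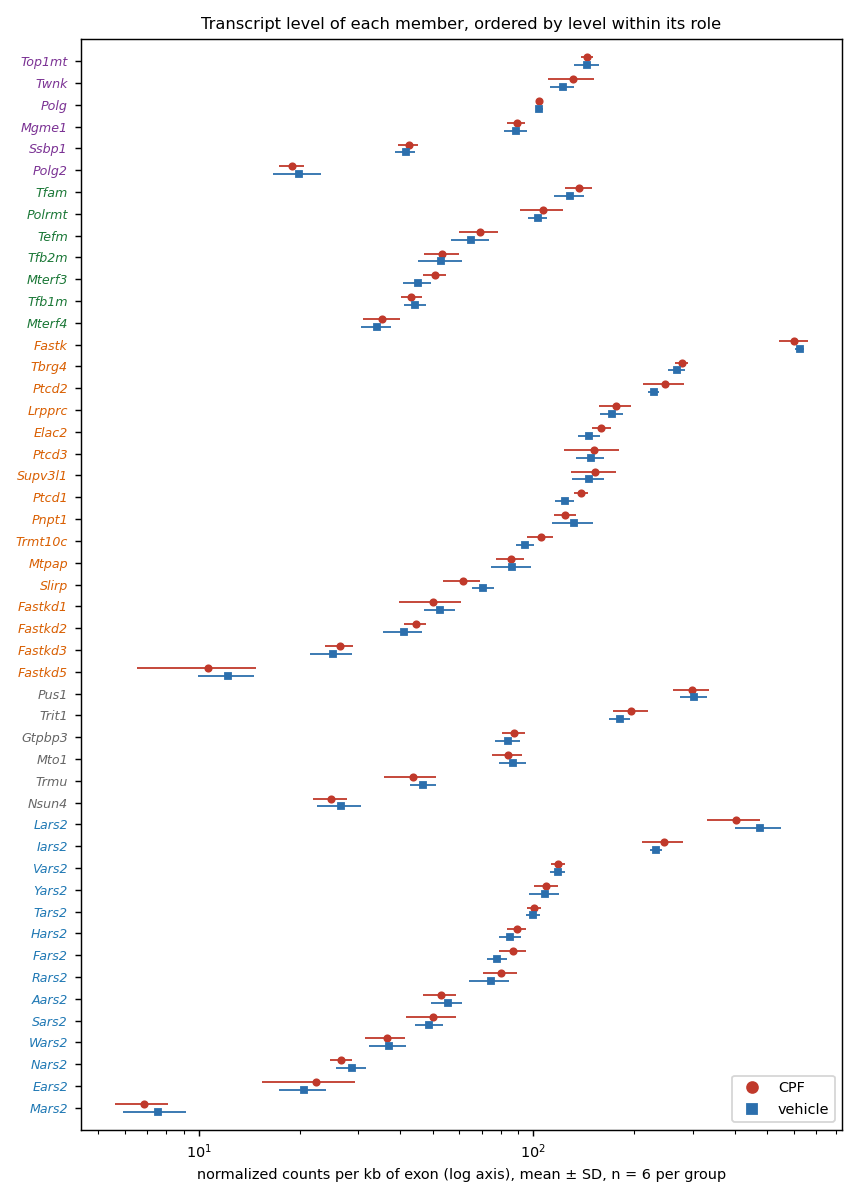
Mean normalized count per kb of exon (log axis, error bars SD, n = 6 libraries per group) of each gene in CPF (red circles) and vehicle (blue squares) libraries, ordered within 5 roles that are marked by the colour of the symbol. Levels ran from 7.20 per kb for Mars2 to 612 for Fastk, and the SD bars of CPF and vehicle overlapped for each of the 49 genes.

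None of the 49 genes passed the test between CPF and vehicle (limma, Benjamini-Hochberg adjusted p under 0.05 over 13531 genes), and neither did any other gene (0%). With an unadjusted p under 0.05, 4 members had higher CPF means (Ptcd1, Fars2, Trmt10c and Mterf3, against 2.77% of tested genes) and 1 had a lower one (Slirp, against 4.55%), which makes 10.2% of the 49, against 7.32% of tested genes. The lowest adjusted p of a member was 0.611 (Ptcd1) and that of any gene 0.569. On whole reads recovered from the table, edgeR called 0 genes and DESeq2 called 6 (0.045%), all lower in CPF and none of them a member. Log2 fold changes of the log2(value + 1) levels, CPF minus vehicle, were -0.25 (Fastkd5) to 0.17 (Mterf3), with a median of 0.019 (-0.0015 over all tested genes), and were positive in 31 of 49 members (63.3%, against 49.6% of tested genes). In 0 of the 49 did the 6 CPF libraries lie wholly above or below the 6 vehicle libraries, as they did for 0.466% of tested genes (0.126% above and 0.34% below).

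The intervals show what size of difference these libraries leave room for. The 95% interval of the log2 fold change lay within 1.5-fold in either direction for 48 of 49 members (98.0%, against 83.7% of tested genes), the exception being Fastkd5, and within 1.25-fold for 39 (79.6%, against 54.9%). Its median half-width was 0.19 for the members and 0.21 for all tested genes. In bulk RNA, fewer cells of a kind and less RNA per cell cannot be told apart.

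**Figure D2:**
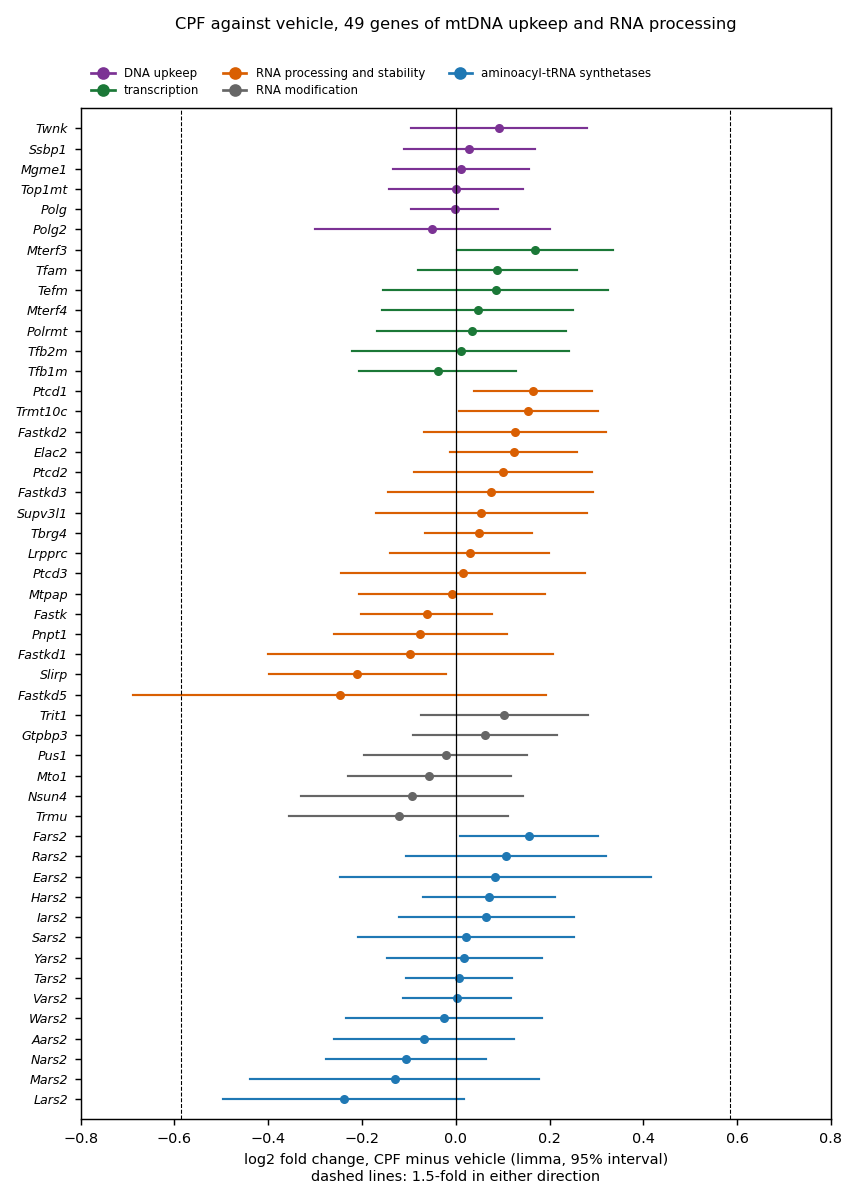
Log2 fold change, CPF minus vehicle, on the horizontal axis for each of the 49 genes (points) with its 95% interval (lines, limma, n = 6 libraries per group), coloured by role. Only the interval of Fastkd5 passes a dashed line at 1.5-fold, and 4 genes, Ptcd1, Fars2, Trmt10c and Mterf3, have intervals above 0 and Slirp has one below 0, before adjustment.

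The genes of DNA upkeep had the smallest median half-width of the 5 roles (0.14), with all 6 intervals within 1.25-fold, a median log2 fold change of 0.0059 and 4 of 6 positive. Polg (chr7:79446231-79466362, minus strand), the catalytic subunit of the mtDNA polymerase, had 1083, 1117 and 1164 normalized counts (lowest, median and highest of 6) in CPF libraries and 1085, 1118 and 1164 in vehicle libraries. The groups overlapped over nearly their whole range, with a log2 fold change of -0.0025 (SE 0.044, adjusted p = 0.994). Twnk, the helicase of the mtDNA replication fork, averaged 526 ± 81.7 in CPF libraries and 491 ± 41.0 in vehicle libraries (SD, n = 6 each, as for all means below). Its log2 fold change was 0.09 (SE 0.088), and CPF replicate 1 was its highest library; without that library the log2 fold change was 0.01 (SE 0.064). Polg2 averaged 83.0 ± 7.14 in CPF and 86.7 ± 14.0 in vehicle libraries, and Top1mt, the mitochondrial topoisomerase, 296 ± 12.9 and 296 ± 25.4 in CPF and vehicle libraries, with log2 fold changes of -0.05 and 0.00073. Ssbp1, which coats single-stranded mtDNA, and the nuclease Mgme1 had log2 fold changes of 0.03 and 0.01.

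Of the 7 transcription genes 6 had positive log2 fold changes (median 0.047), and 1 had an unadjusted p under 0.05 (14.3%, against 7.32% of tested genes). That gene was Mterf3 (chr13:66906968-66933088, minus strand), a negative regulator of mtDNA transcription in mice, with 223, 249 and 274 normalized counts (lowest, median and highest) in CPF libraries and 201, 218 and 258 in vehicle libraries. All 6 CPF libraries lay above the vehicle mean and 5 of 6 vehicle libraries below the CPF mean, while the ranges of the groups overlapped, and limma gave a log2 fold change of 0.17 (SE 0.079, adjusted p = 0.679). Tfam had 504, 617 and 674 in CPF libraries and 503, 564 and 646 in vehicle libraries. The groups covered almost the same range, with a log2 fold change of 0.09 (SE 0.079, adjusted p = 0.812). Polrmt averaged 499.8 ± 74.0 in CPF libraries and 484 ± 31.0 in vehicle libraries (log2 fold change 0.03, SE 0.095). Tfb1m, which methylates the small mitochondrial rRNA, was the only gene of this role with a negative value, -0.04 (SE 0.079), and averaged 156 ± 11.3 in CPF and 160.1 ± 11.7 in vehicle libraries. The elongation factor Tefm, Mterf4, which acts in ribosome assembly, and Tfb2m, which opens the promoters, had 0.08, 0.05 and 0.01.

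In RNA processing and stability, the largest role, 3 of 16 genes had an unadjusted p under 0.05 (18.75%, against 7.32% of tested genes). Of the 16 log2 fold changes 10 were positive (median 0.039). Ptcd1 (chr5:145147514-145167108, minus strand), a pentatricopeptide repeat protein that binds mitochondrial RNA, had 438, 446 and 497 normalized counts (lowest, median and highest) in CPF libraries and 383, 399 and 454 in vehicle libraries. Every CPF library lay above the vehicle mean and every vehicle library below the CPF mean, with only the highest vehicle library inside the CPF range, and limma gave a log2 fold change of 0.16 (SE 0.059, adjusted p = 0.611). Trmt10c (chr16:56032609-56037819, minus strand), a subunit of the mitochondrial RNase P that releases tRNAs from precursors, had 285, 307 and 365 in CPF libraries and 267, 278 and 315 in vehicle libraries. Its groups were placed in the same way around each other's means, with a log2 fold change of 0.15 (SE 0.07, adjusted p = 0.677). Elac2, which cuts the opposite end of the tRNAs, had 529.7, 541 and 626 in CPF and 464, 513 and 555 in vehicle libraries, again with every library on its own side of the other group's mean, and a log2 fold change of 0.12 (SE 0.064, adjusted p = 0.698). For Trmt10c and Elac2 the highest library was CPF replicate 1 (365 and 626). Without CPF replicate 1 and vehicle replicate 2 their log2 fold changes were 0.10 (SE 0.066) and 0.07 (SE 0.059), with unadjusted limma p-values above 0.05. How many of all tested genes are placed in this way around the group means was not counted.

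Slirp and Lrpprc, whose proteins form a complex that stabilizes mitochondrial mRNAs, had values of opposite sign. Slirp (chr12:87443896-87452206, plus strand) had 159.7, 185 and 227 normalized counts (lowest, median and highest) in CPF libraries and 195, 222 and 238 in vehicle libraries. CPF libraries were below the vehicle mean in 5 of 6 cases and no vehicle library was below the CPF mean, with a log2 fold change of -0.21 (SE 0.089, adjusted p = 0.654). Lrpprc averaged 1499 ± 167 in CPF libraries and 1464 ± 115 in vehicle libraries, with a log2 fold change of 0.03 (SE 0.08, adjusted p = 0.95); the difference between the values of these 2 genes was not tested. In the Fastk family, Fastk averaged 2625 ± 263 in CPF and 2729 ± 84.1 in vehicle libraries (-0.06), Fastkd2, which binds the large mitochondrial rRNA, 261 ± 19.9 and 241 ± 32.6 in CPF and vehicle libraries (0.13), and Fastkd5 32.1 ± 12.4 and 36.9 ± 7.03 in CPF and vehicle libraries (-0.25, SE 0.21). Without CPF replicate 1 the value of Fastkd5 was -0.41 (SE 0.17), with an unadjusted p under 0.05 and an adjusted p of 0.243 in limma, and without CPF replicate 2 it was -0.15 (SE 0.21). The other members of the family, Fastkd1, Fastkd3 and Tbrg4, had log2 fold changes of -0.10, 0.07 and 0.05, so that the family held both signs. The exoribonuclease Pnpt1 and the helicase Supv3l1, partners in RNA decay, had -0.08 and 0.05, and the poly(A) polymerase Mtpap had -0.0071. Ptcd2 and Ptcd3, relatives of Ptcd1, had 0.10 and 0.02.

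**Figure D3:**
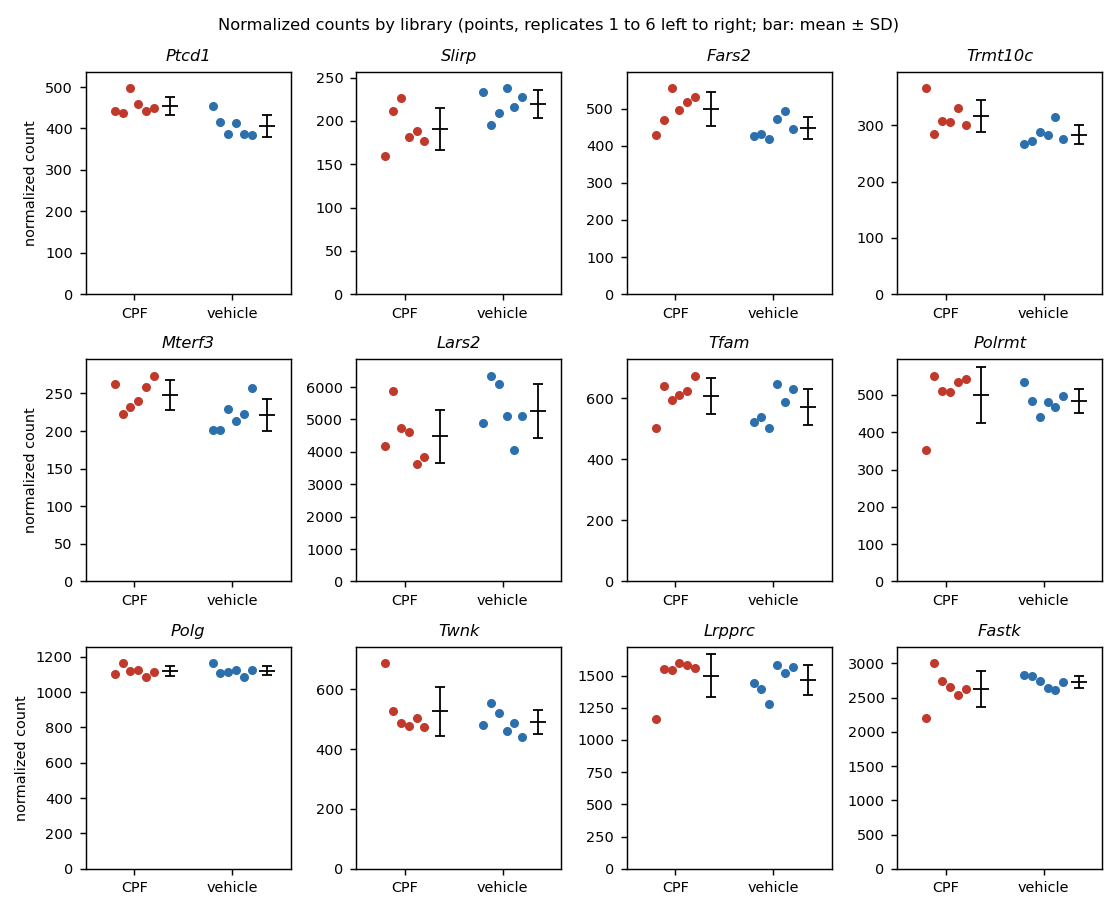
Normalized count (vertical axis, from 0) of 12 genes in each CPF library (red, left) and vehicle library (blue, right), with the mean and SD of each group beside the points (n = 6 libraries per group). The groups overlap in every panel, and CPF replicate 1, the leftmost red point, lies low for Polrmt, Lrpprc and Fastk and high for Twnk. That library is also the lowest red point for Slirp, Fars2 and Tfam and the highest for Trmt10c.

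RNA modification was the only role with a negative median (-0.038), with 2 of 6 positive values and no unadjusted p under 0.05. Trit1, which adds an isopentenyl group next to the anticodon of some tRNAs, had 316, 421 and 451 normalized counts (lowest, median and highest) in CPF libraries and 327, 385 and 407 in vehicle libraries, with a log2 fold change of 0.10 (SE 0.084, adjusted p = 0.799). The lowest value of each group belonged to a library that stood apart, CPF replicate 1 and vehicle replicate 2. Trmu, which adds sulfur to the wobble uridine, averaged 173 ± 30.6 in CPF and 186 ± 16.8 in vehicle libraries (log2 fold change -0.12, SE 0.11). Gtpbp3 and Mto1, which together modify the same base, had 0.06 and -0.06, and the rRNA methyltransferase Nsun4 had -0.09. Pus1 averaged 650.2 ± 80.9 in CPF and 658 ± 60.9 in vehicle libraries (-0.02).

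Among the 14 synthetases 9 had positive log2 fold changes (median 0.013). Fars2 (chr13:36117412-36726280, plus strand), which charges the phenylalanine tRNA, had 428, 508 and 555 normalized counts (lowest, median and highest) in CPF libraries and 418, 439 and 493 in vehicle libraries. CPF libraries were above the vehicle mean in 5 of 6 cases and all 6 vehicle libraries below the CPF mean, with a log2 fold change of 0.16 (SE 0.069, adjusted p = 0.677). Lars2 (chr9:123366927-123462666, plus strand), the most abundant synthetase, had the largest difference of the role in the other direction, with 3619.8, 4390.0 and 5876 in CPF libraries and 4066, 5102 and 6351 in vehicle libraries. CPF libraries were below the vehicle mean in 5 of 6 cases, and the ranges shared most of their span, with a log2 fold change of -0.24 (SE 0.12, adjusted p = 0.697). Nars2, for asparagine, averaged 185 ± 14.0 in CPF and 200.0 ± 20.3 in vehicle libraries (-0.11, SE 0.081). The other 11 synthetases had log2 fold changes from -0.13 (Mars2) to 0.11 (Rars2), and Tars2 and Vars2 had the narrowest intervals of this role, both -0.11 to 0.12.

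Much of the spread among these genes came from 1 library. CPF replicate 1 was the library farthest from the gene's mean for 22 of the 49 members, the lowest for 16 and the highest for 8. Its median absolute log2 difference from the gene mean was 0.24 over the members and 0.20 over all tested genes, and in the other 11 libraries the members' value was 0.056 to 0.13. In this library the median of the RNA modification genes was -0.30 and that of the RNA processing genes -0.14, while transcription, DNA upkeep and the synthetases stood at 0.038, 0.0066 and 0.00064. The median log2 difference over all members was -0.031 to 0.061 in CPF libraries and -0.049 to 0.030 in vehicle libraries, and the members together took 0.256% to 0.290% of all normalized counts in every library.

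**Figure D4:**
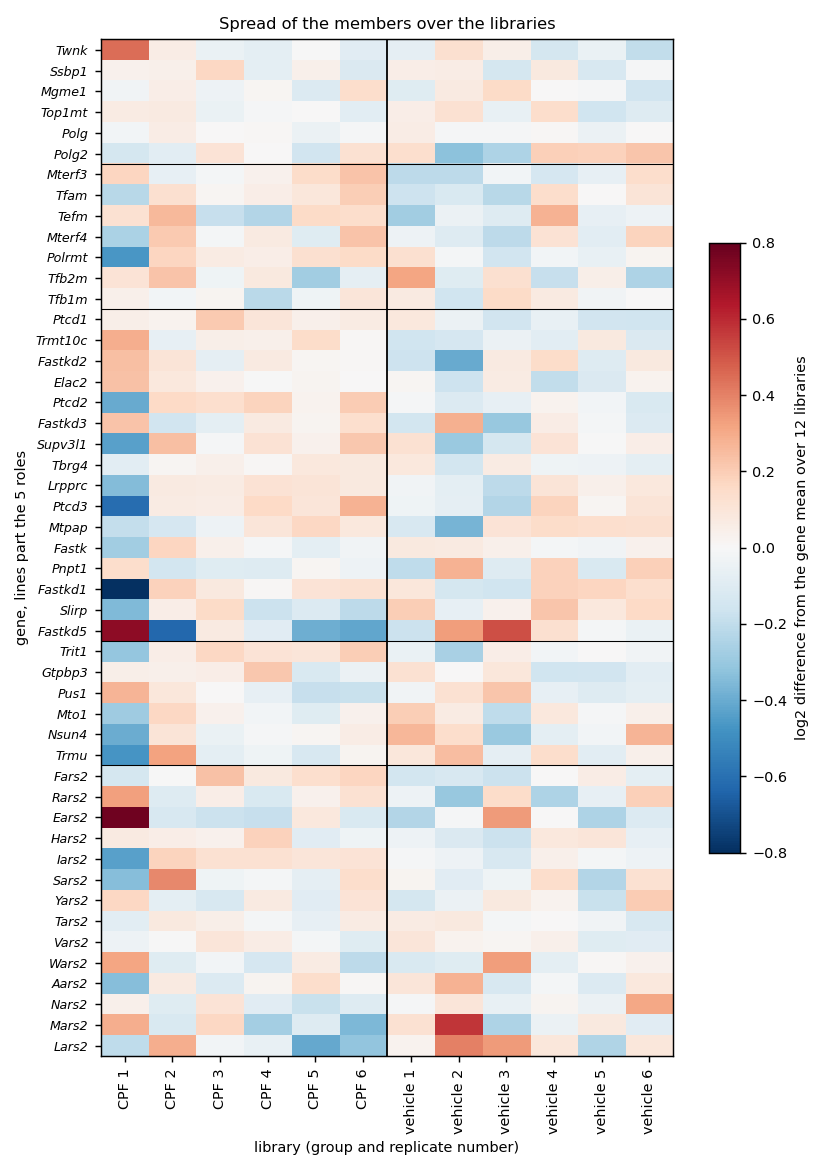
Log2 difference of each gene from its own mean over 12 libraries (red above, blue below), with genes down the page by role and libraries across it, CPF replicates 1 to 6 and then vehicle replicates 1 to 6. CPF replicate 1 holds the strongest colours, from -0.80 (Fastkd1) to 0.78 (Ears2), and most other cells are paler, with exceptions such as Fastkd5, Mars2 and Lars2.

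Leaving out CPF replicate 1 and vehicle replicate 2 together gave 54 genes with an adjusted p under 0.05 in limma (0.399% of tested genes; 25 higher and 29 lower in CPF). None of the 49 was among them, the lowest adjusted p of a member being 0.127 (Iars2). At an unadjusted p under 0.05 there were then 7 members, Fars2, Iars2, Polrmt, Ptcd1, Ptcd2 and Trit1 with positive values and Slirp with a negative one, which is 14.3% of the 49 and 14.3% of tested genes. Log2 fold changes in this comparison were 0.16 for Iars2, the isoleucyl-tRNA synthetase, 0.18 for Ptcd2, 0.13 for Polrmt, 0.13 for Trit1, 0.18 for Ptcd1, 0.19 for Fars2 and -0.19 for Slirp. Mterf3 and Trmt10c had 0.13 and 0.10 there, with unadjusted p-values above 0.05.

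Replicates 1 to 3 and 4 to 6, which differ in depth, were also compared with each other, pooled over treatment. The split was chosen because earlier results of these data showed that the sets differ, so the calls between them are a description. Between them 88 genes passed the test (limma, 0.650% of tested genes) and none of the members did (lowest adjusted p 0.110, Pus1). At an unadjusted p under 0.05 there were 8 members (16.3%, against 14.2% of tested genes): Ptcd3 (log2 difference 0.28), Mtpap (0.25), Tfam (0.20) and Lrpprc (0.18) were on the higher side in replicates 4 to 6, and Lars2 (-0.28), Pus1 (-0.23), Tfb2m (-0.22) and Twnk (-0.19) on the lower side. The part of depth in these values was not tested.

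Within replicates 1 to 3, CPF against vehicle gave 0 genes with an adjusted p under 0.05 and 0 members with an unadjusted one, against 1.42% of tested genes. Within replicates 4 to 6 it gave 22 genes (0.163% of tested genes, 8 higher and 14 lower) and no member (lowest adjusted p 0.130), and 6 members with an unadjusted p under 0.05, which is 12.2% of the 49, against 13.8% of tested genes. Ptcd1 had log2 fold changes of 0.14 within replicates 1 to 3 and 0.19 within replicates 4 to 6, Fars2 0.18 and 0.13, Trmt10c 0.20 and 0.10, Mterf3 0.18 and 0.16, Slirp -0.10 and -0.32, and Lars2 -0.24 and -0.24. The sign was the same in both sets for 28 of 49 members (57.1%: 17 positive and 11 negative), against 62.2% of tested genes.

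**Figure D5:**
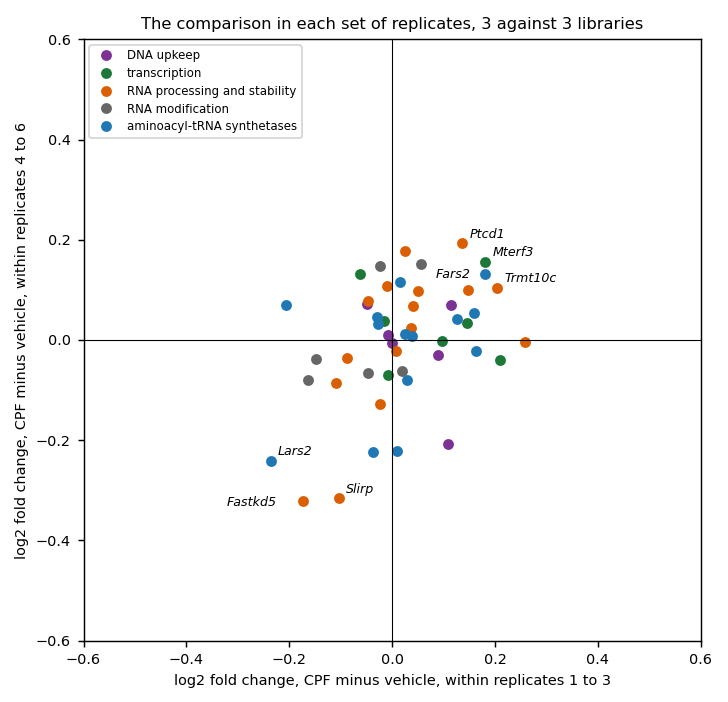
Log2 fold change, CPF minus vehicle, within replicates 1 to 3 (horizontal axis) and within replicates 4 to 6 (vertical axis), 3 CPF against 3 vehicle libraries in each, with 1 point per gene coloured by role. Of the 49 points 17 have positive values in both sets and 11 negative values in both, as Lars2 and Slirp do, and the rest have opposite signs.

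Further genes of the same pathways gave no call either. Of 40 further mtDNA and mtRNA factors 39 were tested (Prorp had no row under this symbol), 18 of them with positive log2 fold changes (46.2%, against 49.6% of tested genes). Unadjusted p-values were under 0.05 for 3 of the 39 (7.69%, close to the 7.32% of tested genes): for Mrm3 (0.27) and Nsun3 (0.22), both RNA methyltransferases, and for Dna2 (-0.32), a nuclease and helicase that also acts in the nucleus. Of 6 genes of nucleotide supply 5 were positive, and Mpv17, an inner membrane protein whose loss depletes mtDNA, was the gene with an unadjusted p under 0.05: 247, 280.0 and 307 normalized counts (lowest, median and highest) in CPF libraries against 193, 239 and 264 in vehicle libraries, with a log2 fold change of 0.27 (SE 0.08, adjusted p = 0.569). The 7 upstream regulators had 4 positive values and no unadjusted p under 0.05. Log2 fold changes were -0.12 for Nrf1, 0.04 for Gabpa, 0.15 (SE 0.074) for Gabpb1 and 0.03 for Esrra. The PGC-1 coactivators had -0.26 (Ppargc1a, SE 0.21), 0.15 (Ppargc1b, SE 0.16) and -0.13 (Pprc1, SE 0.16).

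The RNAs that these proteins make and handle were measured in the same libraries. Of the 13 protein genes of mtDNA 3 had positive log2 fold changes (23.1%, against 49.6% of tested genes) and none an unadjusted p under 0.05, with a median of -0.14. Their mean counts differed widely, from 16.3 in CPF and 14.9 in vehicle libraries for mt-Nd3 to 160050 and 188999 for mt-Co1. This count and median weigh low and high genes alike. Since mitochondrial RNAs are released from long shared precursors, the 13 values are not independent of each other, unlike most of the tested genes beside them. The small mitochondrial rRNA mt-Rnr1 had 4888, 5266 and 5712 normalized counts (lowest, median and highest) in CPF libraries and 5527, 6140.5 and 7962 in vehicle libraries. Replicates 1 to 4 of CPF lay below every vehicle library, with a log2 fold change of -0.29 (SE 0.089, adjusted p = 0.599). The large rRNA mt-Rnr2 averaged 17459 ± 3636 in CPF libraries and 18326 ± 3034 in vehicle libraries, with a log2 fold change of -0.08 (SE 0.15, adjusted p = 0.914).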

How the data were processed

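Strand-preserving libraries of total RNA from 6 CPF and 6 vehicle samples were sequenced, and groups and replicate numbers follow the sample labels. The authors used Trimmomatic for trimming, HISAT2 for alignment (GRCm38), htseq-count for exon reads (reverse strand, alignment quality of at least 10) and DESeq2 for normalization; versions: not given in the sources used here. The deposited signal per gene and library is in DESeq2-normalized counts. All values were whole multiples of what 1 read is worth (100% within 0.01 read), so whole reads were recovered. Not used were 12 columns of a ratio per library, the authors' fold change, percent change and p-value columns, and sheets with the authors' gene lists. For 14 genes the deposited symbol appears as a date, and 14761 of 14775 identifiers are in GENCODE M21 (same assembly, later release), which gave positions and exon lengths.

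For genes with a mean of at least 10, the two-sided comparison by limma 3.58.1 (R 4.3.3, trend and robust) took log2(value + 1) with no covariate and adjusted p over all 13531 by Benjamini-Hochberg. Since 1 is added before the logarithm, fold changes of low genes are understated. Recovered reads were also tested with DESeq2 1.42.0 and edgeR 4.0.16, and other alternatives were pseudocounts of 0.1 and 10, a minimum mean of 50 or none, TMM rescaling, the replicate number or the replicate set as a term, each set alone, removal of 2 libraries, and each library left out. The limma, edgeR and DESeq2 steps were tested on simulated data. No pair of libraries agreed within sampling noise (chi-square per degree of freedom within groups 2.98 to 32.1). Values by group are given for the 10 members with the smallest p, the members with the highest level per kb, largest and smallest fold change in each role, and Tfam, Polrmt, Polg, Twnk and Lrpprc (22 genes). The members, lists and comparisons were chosen with earlier results of these data known.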

Additional observations from a re-analysis of the deposited data

Results flagged for a closer look

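In 7 of 48 groups of 6 libraries examined, 1 library lay far from the other 5 (a gap to its neighbour above 0.625 of the group's range). CPF replicate 1 was that library in 5 of the 7. Chance alone gives about 1 in 20 for independent groups. The groups here share the same 12 libraries, so their count cannot be set against that rate. The values of CPF replicate 1 come first. This library had 688 normalized counts of Twnk, against 474 to 527 in the other CPF libraries, and 626 of Elac2, against 529.7 to 562. It was low for Polrmt (353, against 508 to 551), Lrpprc (1161, against 1542 to 1598) and Trit1 (316, against 407 to 451). Ptcd1 stood at 497 in CPF replicate 3, against 438 to 459.8 in the other CPF libraries, and Trit1 at 327 in vehicle replicate 2, against 378 to 407 in the other vehicle libraries. CPF replicate 1 and vehicle replicate 2 are the libraries that stood apart over all genes, and the part of this in the single genes was not tested.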

How the results depend on the processing

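No member passed the adjusted threshold under any of the 24 alternatives run, and its lowest adjusted p over all of them was 0.116 (without CPF replicate 1). The count of all genes called, 0 by limma, was 6 with DESeq2, 22 within replicates 4 to 6, 54 without the 2 libraries that stood apart, and 0 to 11 with 1 library left out, the 11 being without CPF replicate 1. Members with an unadjusted p under 0.05, 5 by limma, were 3 with DESeq2 (6.12%, against 7.20% of all genes), 0 within replicates 1 to 3 (against 1.42%), and 1 to 7 with 1 library left out. There were 7 without CPF replicate 1 (14.3%, against 16.4% of tested genes), 3 without CPF replicate 3 (6.12%, against 5.25%), 1 without CPF replicate 4 or vehicle replicate 1 (2.04%, against 5.79% and 8.74%), and 2 without CPF replicate 5 or 6 or vehicle replicate 2, 4 or 6 (4.08%, against 5.29% to 6.41%). The share over all tested genes thus moved too, and the cause was not tested. Of the 5 members by limma, Fars2 and Ptcd1 kept an unadjusted p under 0.05 without CPF replicate 1, and Slirp, Trmt10c and Mterf3 did not. With the replicate number as a block 0 genes were called and 4 members had an unadjusted p under 0.05 (8.16%, against 7.58% of tested genes). The median log2 fold change of 0.019 cannot move in this setting, because each number holds 1 library of each group. Equal numbers did not pair the libraries (correlations of -0.21 to 0.26, and only replicate 5 correlated best with its own number).

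Of 527 values of the 22 named genes under these alternatives 503 kept their direction. In part of these the sign could not turn. Filters on the mean and terms for the replicate number or set leave the log2 fold change of a gene unchanged. Fastkd5 gives no value at a minimum mean of 50. The sign turned within replicates 1 to 3 for Polg (log2 fold change 0.00020), Polg2 (0.11), Top1mt (-0.0086), Polrmt (-0.062), Pus1 (0.019) and Nars2 (0.0086), within replicates 4 to 6 for Fastkd2 (-0.0046), and for Top1mt with edgeR (-0.0024) and DESeq2 (-0.00038). Leaving out 1 library gave -0.014 to 0.0088 for Polg, -0.031 to 0.029 for Top1mt, -0.074 to 0.0010 for Tfb1m, -0.0086 to 0.10 for Lrpprc and -0.077 to 0.021 for Pus1. The 6 libraries per group limit these values to about the half-width of their intervals.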
